A study of Mus musculus with 2 samples.

Results

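The protein-coding genes whose symbol begins with Cyp and a digit encode the cytochrome P450 enzymes, and their RNA is described here in the embryonic mouse liver. Membership goes by symbol in the GENCODE annotation of GRCm38, and all 100 such genes of the annotation had a row in the gene tables, out of 43346 genes and 21474 protein-coding genes. Total RNA longer than 200 nt was sequenced from whole livers of B6NCrl mouse embryos at embryonic day 15.5. Both libraries belong to 1 group, replicate 1 being a pool of livers from 78 embryos and replicate 2 a pool from 62, with males and females mixed in each. Each was made from 10 ng of RNA with spike-in RNAs added, and the labels call the pools biological replicates. The series has no treated, mutant or control arm, so genes are compared with each other within the tissue and replicate 1 with replicate 2.

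P450 enzymes hold a heme group through a conserved cysteine and use it to insert an oxygen atom into their substrates. Most sit in the endoplasmic reticulum and take electrons from cytochrome P450 reductase, and a few sit in mitochondria and take them from ferredoxin. The liver uses families 1 to 3 mainly on drugs and other foreign compounds and family 4 on fatty acids, while other families make cholesterol, bile acids and steroid hormones or act on retinoic acid and vitamin D.

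The feature that all these enzymes share is the heme-binding loop, and the 30 bases that encode it are shown for the 4 highest genes and for 1 gene of each other functional group. The signature (the PROSITE-type P450 cysteine heme-iron ligand pattern, searched in the translated coding sequences of GRCm38) was found in 94 of the 100 genes, among them 26 of the 29 that reached 1 TPM in both libraries. The codon of the heme-binding cysteine is in capitals, and each sequence is read 5′ to 3′ on the gene's own strand.
Cyp2c68: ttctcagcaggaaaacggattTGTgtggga
Cyp2d26: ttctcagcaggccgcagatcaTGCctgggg
Cyp51: tttggagctgggcgtcatcgtTGTgttgga
Cyp2d10: ttctcagcaggccgcagatcaTGCctgggt
Cyp3a11: tttgggaatggacccaggaacTGCcttggc
Cyp4f15: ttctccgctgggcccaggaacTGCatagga
Cyp27a1: ttcggctatggggttcggtctTGCctgggt
Cyp17a1: ttcggagctggtccccgatcgTGCattgga
Cyp2r1: ttttctctagggagaagacatTGTcttgga
Cyp26a1: tttggaggaggccttcggagcTGTgtaggc
Cyp1b1: ttctcagtgggcaaacggaggTGCatcggt

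The cysteine codon was TGC in 57 genes and TGT in 37. The loop was split by an intron in all 47 family 2 genes that hold it, in all 20 family 4 genes and in Cyp51, and it lay in 1 exon in the other 26. In Cyp2c68, on the minus strand, its 2 pieces were at chr19:39699261-39699270 and chr19:39689234-39689253. In Cyp3a11, also on the minus strand, the whole loop was at chr5:145858805-145858834, in exon 12 of 13. The Cyp2c68 loop was the same, base for base, in Cyp2c67, Cyp2c40 and Cyp2c69, and 31 genes in all shared their loop with another. Loops of this signature were not found in Cyp20a1, Cyp39a1, Cyp8b1, Cyp2s1, Cyp7b1 and Cyp2t4, and nothing is drawn from that about those enzymes.

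Most P450 genes were low or silent at this stage. Of the 100, 29 were detected, meaning at least 1 TPM in both libraries, against 53.1% of all protein-coding genes. At least 10 TPM in both was reached by 7, where the share over protein-coding genes was 27.8%. A count of 0 in both libraries was found for 24 genes, close to the 20.5% of all protein-coding genes. TPM is an abundance corrected for transcript length and scaled to the library total, given here after spike-ins were left out. A count of 0 allows up to 3 counts, or 0.0881 CPM (counts scaled to the library total) in replicate 1 and 0.0679 in replicate 2, so it does not show absence. A further 12 genes had up to 3 counts in each library and more than 0 in at least one, and 32 had more than that but stayed under 1 TPM in both.

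The 100 genes together came to 556 TPM in replicate 1 and 463 TPM in replicate 2, a mean of 509 ± 66.2 (SD, n = 2), and the median gene stood at 0.189 TPM. A few genes carried this sum. Cyp2c68 alone held 28.8% ± 2.39 of it, the 4 highest held 62.5% ± 1.32 and the 7 highest held 78.4% ± 0.211 (SD, n = 2 each). By function, family 2 (its vitamin D gene apart) held 69.2% ± 2.97 of the sum, and by counts, which are not corrected for transcript length, it held 57.9%. In bulk tissue, fewer cells of a type and less RNA per cell cannot be told apart.

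**Figure D1:**
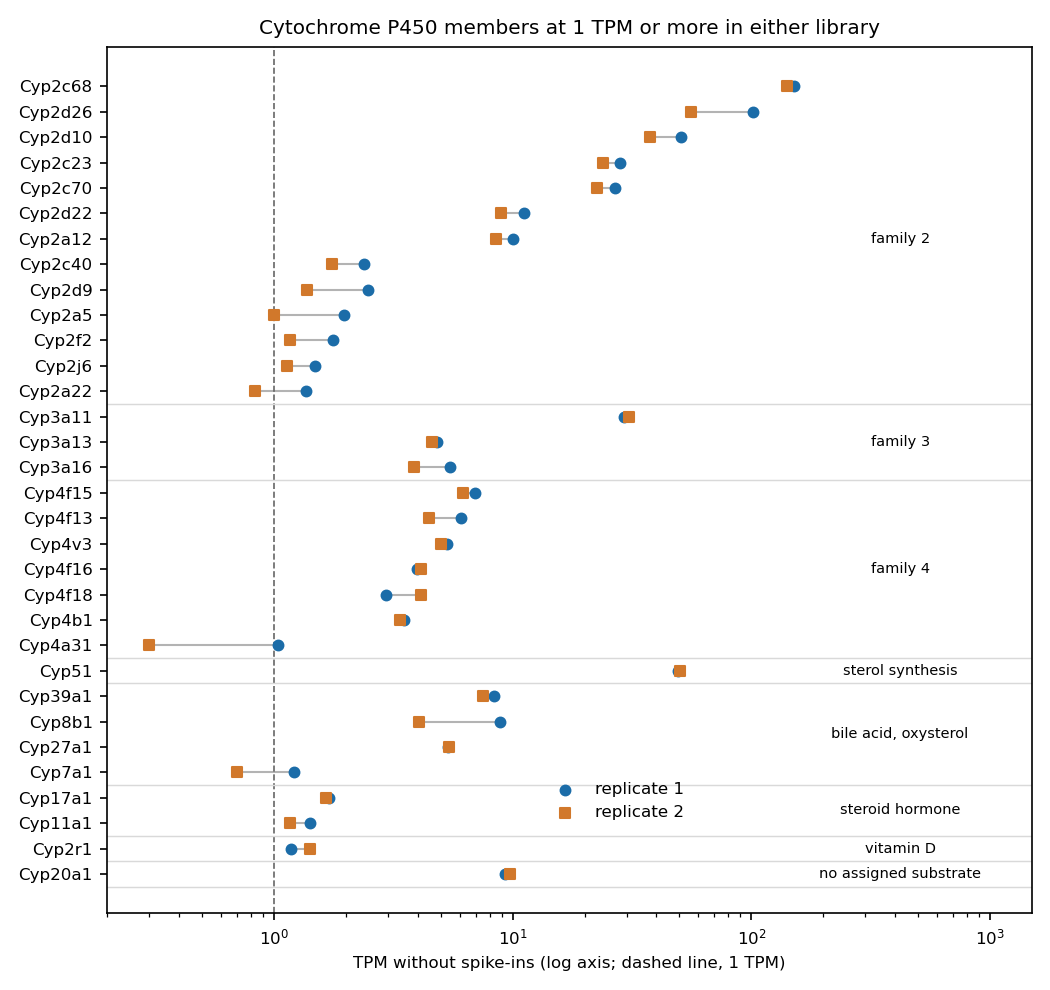
TPM on a log axis for the 32 P450 genes at 1 TPM or more in either library, grouped by function, with circles for replicate 1, squares for replicate 2 and a dashed line at 1 TPM. Cyp2c68, at 151 and 141 TPM, lies above all others, and most genes lie between 1 and 10 TPM.

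**Figure D2:**
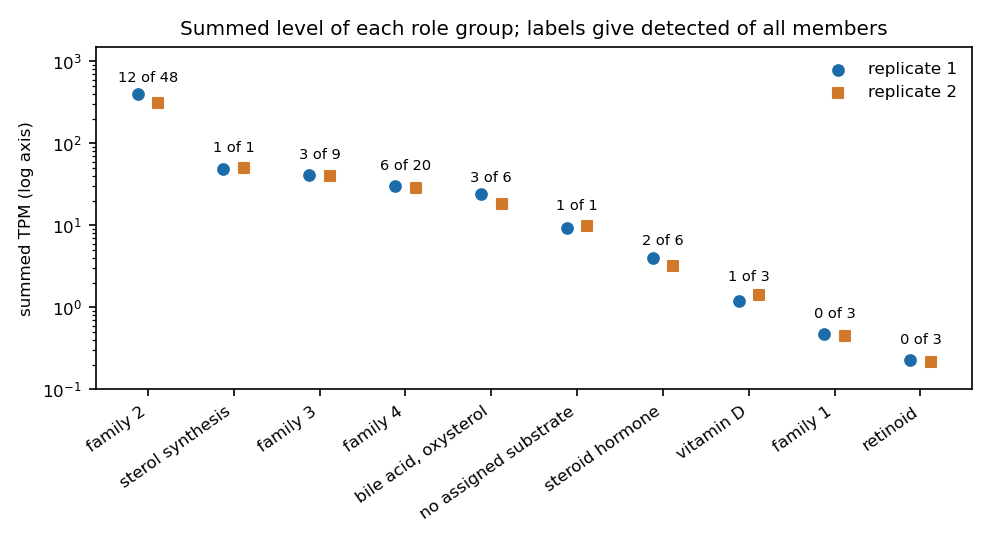
Summed TPM of each functional group on a log axis, with circles for replicate 1 and squares for replicate 2, with the number detected out of all genes of the group beside each. Family 2 stands at 396 and 310 TPM, while family 1 and the retinoic acid group stay under 1 TPM.

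Sorted by mean TPM, the 32 genes at 1 TPM or more in a library make 31 neighbouring pairs, and in 22 of these the ranges of the 2 libraries overlapped. The top of the order was distinct: Cyp2c68 lay above Cyp2d26, which lay above Cyp51, while Cyp51 and Cyp2d10 overlapped. Cyp2d10 lay above Cyp3a11 and Cyp3a11 above Cyp2c23 without overlap. Below these, Cyp2c70 lay above Cyp2d22, Cyp2a12 above Cyp39a1, Cyp39a1 above Cyp4f15, Cyp4v3 above Cyp3a13 and Cyp4b1 above Cyp2c40.

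Cyp2c68, at chr19:39688834-39741054 on the minus strand (ENSMUSG00000074882), had 151 TPM in replicate 1 and 141 TPM in replicate 2. Both libraries put it first among the 100 genes, with a mean of 146 ± 6.89 TPM (SD, n = 2) and 7623 and 9612 expected counts. It belongs to the Cyp2c subfamily, whose human relatives metabolise many drugs. It lies in a cluster of 14 Cyp2c genes spanning 1180 kb (chr19:39007019-40187333), in which it held 83.8% ± 1.04 of the summed TPM, while 7 of the 14 had a count of 0 in both libraries.

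The nearest relatives of Cyp2c68 in that cluster were low. Cyp2c40 had 2.38 and 1.75 TPM, Cyp2c67 had 0.777 and 0.681 TPM, and Cyp2c69 had 0.3004 and 0.310 TPM in replicates 1 and 2. Cyp2c68 stood 43.5-fold above the sum of these 3 in replicate 1 and 51.3-fold above it in replicate 2 (47.4 ± 5.50, SD, n = 2). The split of reads among them is uncertain, because the coding sequences of Cyp2c68 and Cyp2c40 are 98.1% identical and 43.3% of the 50-base words of Cyp2c68 also occur in another P450 gene. The authors' posterior SD of the count, their estimate of the error from sharing reads, was 5.13 and 4.91 counts for Cyp2c68. For Cyp2c40 it was 6.75 of 118 counts in replicate 1 and 6.09 of 113 in replicate 2.

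The regions around the annotated starts of these neighbours are also alike. A stretch of 91 bases is shown because it differs between the high gene and its low neighbours within the letters of motifs that were searched. The promoters (250 bases before to 50 after each start, RefSeq, GRCm38.p6) of Cyp2c68 and Cyp2c40 were 94.4% identical where aligned. The windows, all on the minus strand, are Cyp2c68 at chr19:39741088-39741178, Cyp2c67 at chr19:39649077-39649167 and Cyp2c40 at chr19:39812769-39812859. The 3 runs of capitals mark, from the 5′ end, the HNF4-type motif, the bases in the place of a C/EBP-type motif and the bases in the place of a TATA box.
Cyp2c68: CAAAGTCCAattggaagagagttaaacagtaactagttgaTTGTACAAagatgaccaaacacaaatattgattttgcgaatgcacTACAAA
Cyp2c67: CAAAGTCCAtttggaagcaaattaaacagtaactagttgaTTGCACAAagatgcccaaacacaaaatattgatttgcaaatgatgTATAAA
Cyp2c40: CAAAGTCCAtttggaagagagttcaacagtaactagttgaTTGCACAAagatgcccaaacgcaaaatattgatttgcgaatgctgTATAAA

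The Cyp2c69 window (chr19:39886754-39886844) has the letters of Cyp2c40. Within the capitals Cyp2c68 differs from Cyp2c40 by C44T and T88C, with Cyp2c40's base first and positions counted from the first base of the HNF4-type motif. The highest P450 gene therefore lacks the letters TTGCNNAA and TATAAA in this stretch, and the 3 low neighbours hold them. The reverse holds for the letters CCAAT, searched on both strands. The Cyp2c68 window has them at -71 and -68 from its RefSeq start, beginning within and just after the HNF4-type motif. The windows of the 3 low neighbours do not have them. Annotated starts differ among the 4 genes, with the HNF4-type motif beginning 77, 125, 45 and 75 bases before the RefSeq start of Cyp2c68, Cyp2c67, Cyp2c40 and Cyp2c69. The bases in the place of a TATA box begin 8, 40 and 10 bases past that start in Cyp2c68, Cyp2c40 and Cyp2c69. In Cyp2c67 they begin 40 bases before it. Counted from the GENCODE gene starts instead, they begin 39 and 31 bases before the start in Cyp2c68 and Cyp2c67. In Cyp2c40 and Cyp2c69 they begin 40 bases past it. The side on which they lie in Cyp2c68 therefore depends on the annotation. A match is a description of letters and not a site, and a missing match says only that these letters are not in this window.

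HNF4 is a nuclear receptor of hepatocytes, and the letters CAAAGTCCA on either strand were found in the promoters of 11 of the 77 P450 genes with a RefSeq promoter (14.3%). Over all 27025 gene symbols with a promoter the share was 0.555%. The 11 are Cyp2c40, Cyp2c65, Cyp2c67, Cyp2c68, Cyp2c69, Cyp2c70, Cyp3a11, Cyp3a16, Cyp3a41a, Cyp3a41b and Cyp8b1, many of which are close copies and so are not independent. They include genes at high and at zero counts: 6 were detected (24% of the detected genes with a promoter) and 5 were not (9.62% of the others). The motif is shown in capitals with 16 bases on each side for the detected genes outside the group above, to show where these flanks differ. All 4 are on the minus strand, Cyp2c70 at chr19:40187326-40187366, Cyp3a11 at chr5:145879939-145879979, Cyp3a16 at chr5:145469798-145469838 and Cyp8b1 at chr9:121916348-121916388. The flanks of Cyp3a11 and Cyp3a16 share the letters gtgatgca after the motif. The Cyp3a16 window is the same, base for base, in Cyp3a41a (0.331 and 0.196 TPM) and Cyp3a41b (0 TPM in both libraries), which were not detected.
Cyp2c70: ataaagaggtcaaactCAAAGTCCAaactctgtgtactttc
Cyp3a11: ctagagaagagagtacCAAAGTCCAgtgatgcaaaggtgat
Cyp3a16: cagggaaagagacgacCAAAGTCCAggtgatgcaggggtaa
Cyp8b1: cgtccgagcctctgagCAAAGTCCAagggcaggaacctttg

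Other motifs were searched on both strands in the 87 RefSeq promoters of P450 genes, several genes having more than 1. TATAAA was in 39.1% of them, against 13.6% of all 32851 promoters, and TTGCNNAA (C/EBP type) was in 24.1%, against 10.8%. The D-box letters TTANNTAA were in 12.6%, against 6.003%, and CCAAT in 45.98%, against 37.4%. GTTAATNAT (HNF1 type) was in 3.45%, against 0.801%, and TCACNCCAC (SREBP type) in 3.45%, against 1.24%. The core letters bound by the Ah receptor, GCGTG, were in 20.7%, against 32.4%. These shares describe letters in windows that relatives share by descent.

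In the rest of the Cyp2c subfamily, Cyp2c23 and Cyp2c70 were next. Cyp2c23, an epoxygenase of arachidonic acid that lies apart from the cluster at chr19:44005022-44029208, had 28.1 TPM in replicate 1 and 23.9 TPM in replicate 2. Cyp2c70, which makes muricholic acids, the bile acids typical of rodents, had 26.9 and 22.7 TPM. The whole subfamily came to 200 ± 13.3 TPM (SD, n = 2), with 4 of 15 genes detected. Cyp2c37 had 0.228 and 0.279 TPM and Cyp2c55 had 1 count in replicate 2. Cyp2c29, Cyp2c38, Cyp2c39, Cyp2c50, Cyp2c54, Cyp2c65 and Cyp2c66 had a count of 0 in both libraries.

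The Cyp2d subfamily, whose human member CYP2D6 metabolises many drugs, came second with 135 ± 44.3 TPM (SD, n = 2) and 4 of 8 genes detected. Cyp2d26 (ENSMUSG00000022445, chr15:82790101-82794294, minus strand) had 102 TPM in replicate 1 and 55.7 TPM in replicate 2, and Cyp2d10 (chr15:82402846-82407195) had 50.9 and 37.8 TPM. Both were higher in replicate 1, Cyp2d26 by the wider margin. Cyp2d22 had 11.2 and 8.92 TPM, and Cyp2d9, a hydroxylase of testosterone, had 2.48 and 1.37 TPM. All 8 genes lie within 424 kb, where Cyp2d26 held 57.4% ± 5.31 of the summed TPM. Cyp2d40, Cyp2d11 and Cyp2d12 stayed under 0.13 TPM and Cyp2d34 had no counts.

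Among the other subfamilies of family 2, Cyp2a led with 12.6 ± 2.35 TPM (SD, n = 2). Cyp2a12, a steroid hydroxylase, had 10.0 and 8.55 TPM, and Cyp2a5, which hydroxylates coumarin and nicotine, had 1.96 and 1.00 TPM. Cyp2a22 reached 1 TPM only in replicate 1, with 1.37 TPM and 0.836 TPM in replicate 2. The coding sequences of Cyp2a5 and Cyp2a4 are 98.4% identical, so the split between them is uncertain, and Cyp2a4 had 0.912 and 0.568 TPM. Cyp2f2, known from the lung for its action on naphthalene, had 1.77 and 1.17 TPM, beside 0.425 and 0.444 TPM for the 4 lung markers summed. Cyp2j6, of a subfamily that acts on arachidonic acid, had 1.49 and 1.14 TPM, and 5 of the 8 Cyp2j genes had no counts.

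Cyp2e1, the ethanol-oxidising enzyme that is abundant in adult liver, stayed under the limit at 0.870 and 0.413 TPM. The Cyp2b subfamily, the classical target of phenobarbital, summed to 0.889 ± 0.0461 TPM (SD, n = 2) over 5 genes, and its highest, Cyp2b9, had 0.725 and 0.547 TPM. The single genes Cyp2s1, Cyp2u1, Cyp2w1, Cyp2ab1 and Cyp2t4 ranged up to 0.425 TPM, the level of Cyp2s1 in replicate 1, and Cyp2g1 had no counts.

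**Figure D3:**
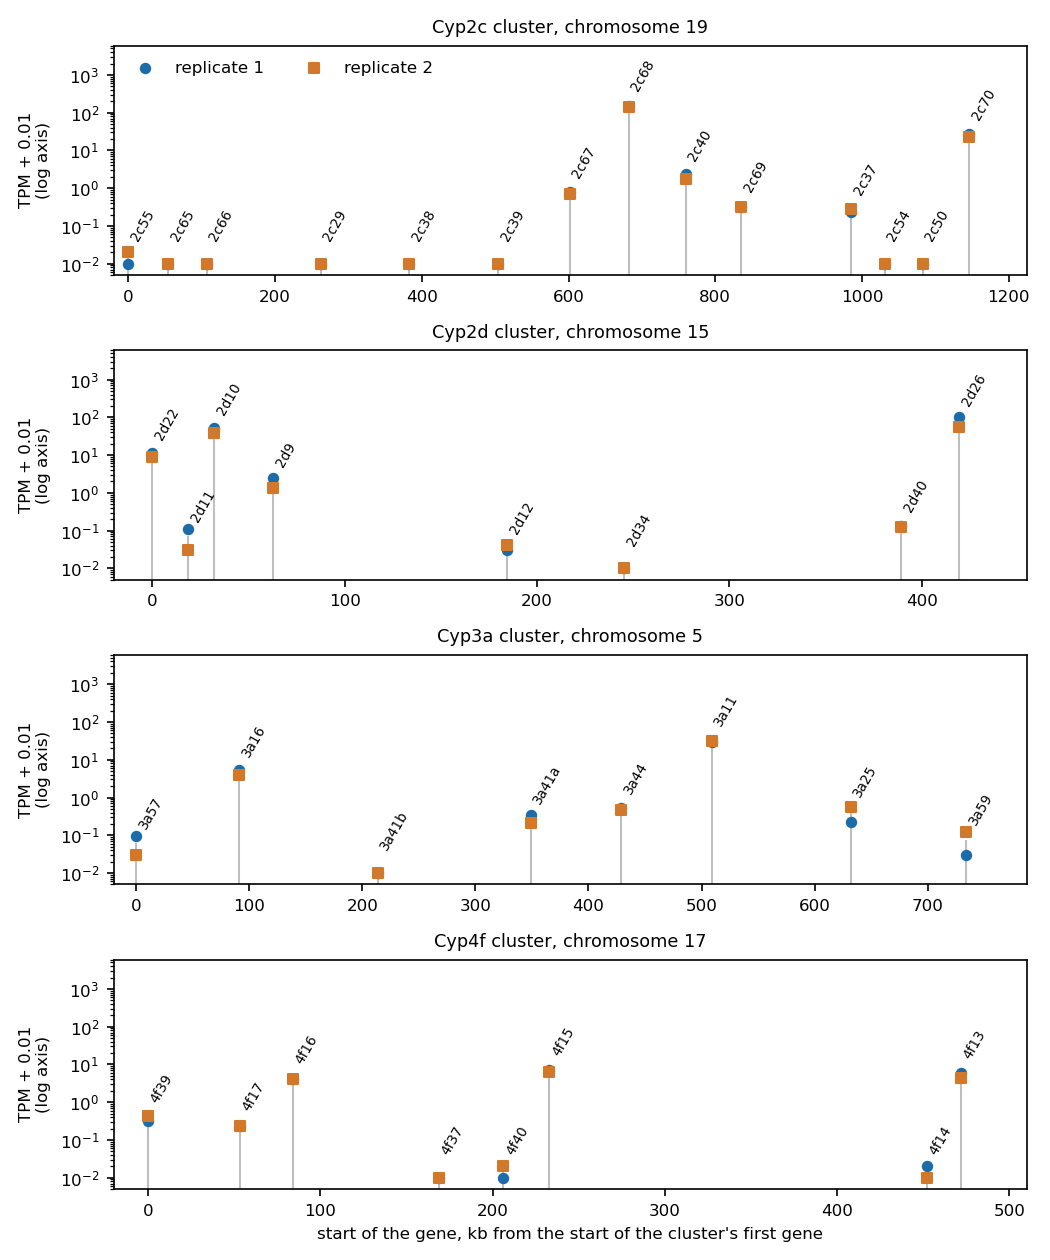
TPM plus 0.01 on a log axis against distance in kb from the first gene, for the Cyp2c genes on chromosome 19, the Cyp2d genes on chromosome 15, the Cyp3a genes on chromosome 5 and the Cyp4f genes on chromosome 17, with circles for replicate 1 and squares for replicate 2. One gene stands far above its neighbours in the Cyp2c and Cyp3a panels, at 83.8% and 83.6% of the cluster's summed TPM, while Cyp4f15 holds 39.9% in its panel.

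The concentration on 1 gene was seen in other clusters too. Taking neighbours with gaps of up to 300 kb, 69 of the 100 genes fell into 8 clusters of at least 3 genes. Cyp3a11 held 83.6% ± 2.83 of the TPM of 8 Cyp3a genes within 768 kb, and Cyp4b1 held 83.2% ± 9.77 among 10 genes of the Cyp4a, Cyp4b and Cyp4x subfamilies. The share of the top gene was 71.0% ± 7.86 for Cyp2j6 and 70.0% ± 5.46 for Cyp2a12 in its chromosome 7 cluster. The lowest top shares were 39.9% ± 0.257 for Cyp4f15 and 35.7% ± 6.57 for Cyp2a4 (SD, n = 2 in each case).

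Family 3, whose members metabolise a large part of all drugs, was nearly equal between the libraries at 40.8 and 40.6 TPM (40.7 ± 0.144, SD, n = 2). Cyp3a11 (chr5:145854426-145879964, minus strand), the main form of adult mouse liver, had 29.4 TPM in replicate 1 and 30.8 TPM in replicate 2. Cyp3a16, known as a fetal form, had 5.47 and 3.87 TPM, and Cyp3a13 had 4.81 and 4.57 TPM. Cyp3a11 was thus above Cyp3a16 by 2.68 ± 0.39 on the log2(TPM + 0.1) scale (SD, n = 2), in both libraries. Of the other 6 genes Cyp3a44 had the highest mean, with 0.518 and 0.444 TPM, and Cyp3a25 had 0.218 and 0.557 TPM. Cyp3a41a had 0.331 and 0.196 TPM and Cyp3a41b had no counts, but their coding sequences are 99.9% identical and reads cannot be told apart between them.

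Family 4 hydroxylates fatty acids and eicosanoids at the end of the chain, and 6 of its 20 genes were detected, with a sum of 29.4 ± 1.46 TPM (SD, n = 2). The Cyp4f subfamily, which inactivates leukotriene B4, held most of it at 20.1 ± 0.664 TPM. Cyp4f15 had 6.98 and 6.19 TPM, Cyp4f13 had 6.09 and 4.45 TPM, and Cyp4f16 had 3.98 and 4.14 TPM. Cyp4f18, known from neutrophils, was higher in replicate 2, with 2.94 TPM in replicate 1 and 4.13 TPM in replicate 2. The 8 neutrophil and monocyte markers summed to 5330 and 5761 TPM, and 4 of the 8 were higher in replicate 2. Their part in the level of Cyp4f18 was not tested.

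Outside the Cyp4f subfamily, Cyp4v3, the mouse counterpart of the gene mutated in Bietti crystalline dystrophy, had 5.31 and 5.02 TPM, and Cyp4b1 had 3.50 and 3.39 TPM. The Cyp4a genes, well-known targets of the fatty acid receptor Ppara, were low, although Ppara itself had 30.02 and 22.3 TPM. Their highest, Cyp4a31, had 1.04 TPM in replicate 1 and 0.299 TPM in replicate 2, from 46.9 and 18.9 expected counts. Cyp4a10 and Cyp4a14 stayed under 0.04 TPM, and 4 of the 8 Cyp4a genes had no counts.

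Cyp51, which removes a methyl group from lanosterol on the way to cholesterol, was the only P450 gene of sterol synthesis and the third of the whole set. It lies at chr5:4081145-4104746 on the minus strand and had 49.3 TPM in replicate 1 and 50.3 TPM in replicate 2. The rest of its pathway was expressed as well. All 18 other genes listed for cholesterol synthesis reached 1 TPM in both libraries, with a sum of 1329 ± 16.5 TPM (SD, n = 2). Fdps led with 322 and 304 TPM, followed by Hmgcs1 with 157 and 157 TPM and Msmo1 with 98.9 and 112 TPM.

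The group of bile acid and oxysterol enzymes summed to 21.1 ± 4.26 TPM (SD, n = 2), with 3 of 6 genes detected. The group leaves out Cyp2c70, which also makes bile acids but is counted with family 2, at 26.9 and 22.7 TPM. Within the group Cyp39a1, which hydroxylates an oxysterol made mainly in brain, had the highest mean, with 8.37 and 7.49 TPM. Cyp8b1, which directs synthesis to cholic acid, had 8.85 TPM in replicate 1 and 4.04 TPM in replicate 2. Cyp27a1, the mitochondrial enzyme that starts the alternative route, was equal at 5.34 and 5.42 TPM. Cyp7a1, the rate-limiting enzyme of the classical route, had 1.21 TPM in replicate 1 and 0.702 TPM in replicate 2, from 154 and 120 counts on a long transcript.

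Relative to Cyp7a1 the other bile acid genes differed within each library, and the size depends on how length is handled. On the log2(TPM + 0.1) scale Cyp27a1 stood 2.42 ± 0.52 above Cyp7a1, and 0.92 above it when CPM is used. Cyp8b1 stood 2.57 ± 0.28 above it, and 1.53 by CPM. Cyp7b1, the enzyme of the alternative route after Cyp27a1, had 0.259 and 0.361 TPM and stood at -1.33 ± 0.76 (SD, n = 2 each), and at -2.38 by CPM. Cyp46a1, known from brain, had 0.0829 and 0.0826 TPM.

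The other listed enzymes of bile acid synthesis all reached 1 TPM in both libraries, 10 of 10, and all 10 were higher in replicate 1. Scp2 led with 374 and 352 TPM, then Slc27a2 with 117 and 100 TPM and Hsd3b7 with 70.0 and 52.1 TPM. Baat, which joins bile acids to taurine and glycine, was the lowest with 2.03 and 1.39 TPM.

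Steroid hormone genes were low but not silent. Cyp17a1 had 1.70 TPM in replicate 1 and 1.65 TPM in replicate 2, from 62 and 96 counts, and Cyp11a1, which cuts the side chain of cholesterol, had 1.41 and 1.17 TPM. These were the detected pair of the 6. The coding transcript of Cyp17a1 alone had 0.953 TPM in replicate 1, under the limit, and 1.25 TPM in replicate 2. Cyp21a1 had 0.456 and 0.217 TPM, Cyp11b1 had 0.363 and 0.145 TPM, Cyp11b2 had 0.0621 TPM in replicate 1 and a count of 0 in replicate 2, and aromatase (Cyp19a1) had a count of 0 in both. Of 8 adrenal and gonad markers, 2 reached 1 TPM in both libraries, and the list summed to 31.0 and 26.3 TPM, most of it Hsd3b1. Insl3 was the second with 2.02 and 2.79 TPM, Star had 48 and 53 counts and Mc2r had 15 and 26. Amh, Nr5a1, Lhcgr and Fshr had between 0 and 7 counts in each library. The part of such cells in the steroid hormone genes was not tested. Of 9 other listed steroid enzymes 4 were at the limit, led by Hsd3b1 with 28.0 and 22.5 TPM, Hsd11b1 with 18.1 and 11.8 TPM and Hsd3b6 with 4.08 and 5.27 TPM, while Hsd17b3 had a count of 0 in both.

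The enzymes that break down retinoic acid were all under 1 TPM. Cyp26a1 had 0.155 and 0.186 TPM, Cyp26b1 had 0.0725 and 0.0310 TPM from 10 and 6 counts, and Cyp26c1 had a count of 0 in both libraries. Cyp26b1 stood at -0.85 ± 0.40 against Cyp26a1 on the log2(TPM + 0.1) scale (SD, n = 2), with 8 and 13 counts of Cyp26a1 behind it. By CPM the difference was -0.25 ± 0.69, and without a pseudocount -1.84 ± 1.05, so its size and, in single libraries, its direction are not settled. Of 12 listed genes of retinoid supply and binding 6 reached 1 TPM in both, with Dhrs3 at 30.7 and 25.4 TPM and the receptor Rara at 4.07 and 4.16 TPM. Stra6, the retinol uptake receptor, was the lowest at 0.0311 and 0.134 TPM.

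For vitamin D, the liver step was measured at a low level, and the kidney steps had 1 count or none. Cyp2r1, which adds the first hydroxyl group, had 1.18 TPM in replicate 1 and 1.41 TPM in replicate 2, of which its leading coding transcript had 0.570 and 0.692 TPM. Cyp27b1, which makes the active hormone in kidney, had 1 count in replicate 1 and 0 in replicate 2, and Cyp24a1, which inactivates it, had a count of 0 in both. Gc, the carrier protein, had 514 and 389 TPM and Dhcr7 had 60.3 and 52.8 TPM, while the receptor Vdr had 0.135 and 0.134 TPM.

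Family 1, induced through the Ah receptor by dioxins and polycyclic hydrocarbons, was under 1 TPM throughout. Cyp1b1 had 0.176 and 0.206 TPM, Cyp1a2, a marker of adult hepatocytes, had 0.145 and 0.134 TPM, and Cyp1a1 had 0.155 and 0.114 TPM. All 3 had between 8 and 43 counts in each library. Cyp20a1, whose substrate is not known, had 9.31 TPM in replicate 1 and 9.75 TPM in replicate 2, above Cyp2r1 by 2.79 ± 0.12 on the log2(TPM + 0.1) scale (SD, n = 2). Among P450 enzymes named without Cyp, thromboxane synthase (Tbxas1) had 9.70 and 8.37 TPM and prostacyclin synthase (Ptgis) had 0.994 and 1.22 TPM.

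The partners of the P450 enzymes were present at higher levels than most of the enzymes. All 10 listed electron donors and partners reached 1 TPM in both libraries, led by cytochrome b5 (Cyb5a) with 666 and 615 TPM, Pgrmc1 with 131 and 122 TPM and Cyb5r3 with 128 and 113 TPM, with Cyb5r1 the lowest by its mean at 16.1 and 16.1 TPM. P450 reductase (Por), named after its values were seen because it serves most of these enzymes, had 42.2 and 34.2 TPM. The mitochondrial donor ferredoxin (Fdx1), named in the same way, had 31.6 and 32.6 TPM. Of 4 epoxide hydrolases, which open epoxides that P450 enzymes form, Ephx2 had 19.7 and 18.2 TPM, Ephx1 had 7.58 and 6.97 TPM and the other two stayed under 1 TPM.

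Of 13 listed genes, receptors that control P450 genes with some partners and a repressor, 11 reached 1 TPM in both libraries. Ppara led, then Nr1h3, an oxysterol receptor, with 18.9 and 19.4 TPM and Arnt, the partner of the Ah receptor, with 15.2 and 14.2 TPM. The Ah receptor repressor Ahrr was the lowest with 0.570 and 0.0310 TPM. Of 9 liver and clock factors 8 were at the limit, with Hnf4a at 17.6 and 15.7 TPM, Cebpa at 11.9 and 9.48 TPM and Tef at 7.48 and 5.72 TPM, and Dbp lowest at 0.798 and 0.464 TPM.

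Between the pools, more P450 genes were higher in replicate 1, but this depended on the scale. Of the 29 detected genes 22 had the higher TPM in replicate 1, against 63% of detected protein-coding genes, and the median difference was 0.15 on the log2(TPM + 1) scale, against 0.05 over all detected protein-coding genes. Divided by the summed hepatocyte markers, a scale chosen after the data were seen, 11 of the 29 were higher in replicate 1, against 10% of detected protein-coding genes. With 1 library on each side there is no test, so a gene is counted where the libraries lie over 1.5-fold apart on the TPM + 1 scale. Past that fold, 3 of 32 P450 genes were higher in replicate 1, beside 0.902% of protein-coding genes, and 0 of 32 were higher in replicate 2, beside 0.527%.

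The 3 genes were Cyp8b1, Cyp2d26 and Cyp4a31. Cyp8b1 differed by 0.97 on the log2 scale, with a count ratio of 2.11 after scaling by library totals (exact Clopper-Pearson 95% interval 1.83 to 2.43). Cyp2d26 differed by 0.86, with a count ratio of 1.76 (1.69 to 1.84). Cyp4a31 differed by 0.65, with a count ratio of 3.22 and a wide interval of 1.85 to 5.80, as its counts were few. These intervals cover counting error only and leave out variation between pools, as there is 1 library on each side. They may also be too narrow for counting error, since PCR copies without molecular identifiers are not independent molecules.

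By those intervals 14 of the 29 detected genes lay wholly above 1, against 22.9% of detected protein-coding genes, and 2 lay wholly below 1, against 19.7%. The pair below 1 were Cyp51, with a ratio of 0.938 (0.907 to 0.970), and Cyp3a11, with 0.918 (0.867 to 0.971). Hepatocyte markers moved the same way as the P450 sum. The 10 markers summed to 50643 TPM in replicate 1 and 40862 TPM in replicate 2, 9 of 10 were higher in replicate 1, and none was at 0. Trf had the widest gap, with 15233 and 10336.5 TPM, while Apoa2 had 5989 and 6148 TPM. Measured against that list, the P450 sum was 1.10% in replicate 1 and 1.13% in replicate 2, a fold of 0.970, where the unscaled fold was 1.20. Neither fold was recomputed without Trf or without Cyp2d26, which had 102 and 55.7 TPM. The side of 1 on which the scaled fold falls is therefore not settled. On the marker scale Cyp8b1 was still past 1.5-fold and Cyp4f18 was past it with the higher level in replicate 2. Cyp2d26 no longer was, at 1.47-fold, and Cyp4a31 fell out because it was under 1 TPM in both libraries, at 0.936 and 0.335 TPM.

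**Figure D4:**
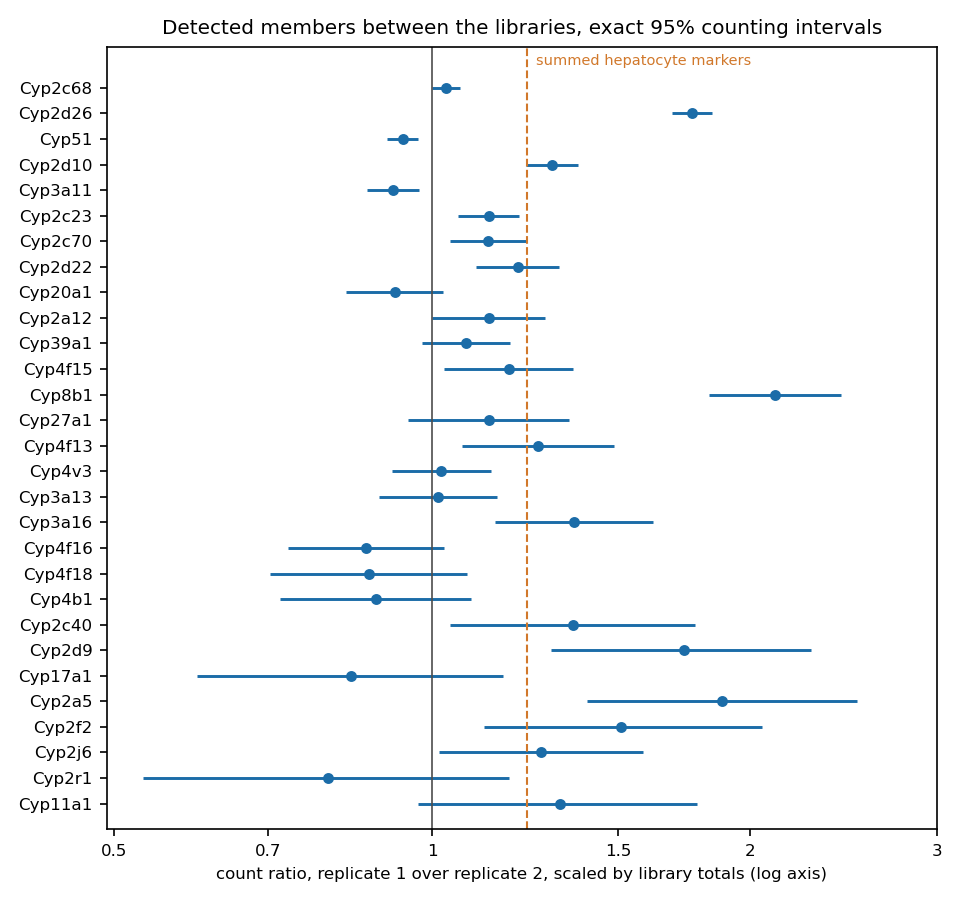
Count ratio of replicate 1 over replicate 2 on a log axis, scaled by library totals, for the 29 detected P450 genes with exact 95% intervals (counting error only), and a dashed line at 1.23, the ratio of the summed hepatocyte markers. The intervals of Cyp8b1, Cyp2a5, Cyp2d26 and Cyp2d9 lie above the line, while the intervals of Cyp51 and Cyp3a11 lie below 1.

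The libraries held 34820426 and 45117192 expected counts with spike-ins, of which the P450 genes took 33295 in replicate 1 and 38466 in replicate 2. The livers had the markers of their blood-forming stage, with 8 erythroid markers at 153225 and 156334 TPM. Of the marker lists for neighbouring organs, exocrine pancreas and bile duct differed most between pools: 7 exocrine pancreas markers summed to 63.5 and 16.3 TPM, of which 6 were higher in replicate 1 and Pnlip had a count of 0 in both, and 5 bile duct markers summed to 26.7 and 13.4 TPM, all 5 higher in replicate 1. The 6 gut markers summed to 13.5 and 13.4 TPM and the 6 kidney markers to 0.0207 and 0.0206 TPM, with 3 kidney markers at 0. Their part in the differences between libraries was not tested.

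Most P450 RNA was assigned to protein-coding transcripts. Of the 29 detected genes 13 have a single annotated transcript, which fixes their share. Over the other 16 genes, coding transcripts held 86.1% of the TPM in replicate 1 and 86.1% in replicate 2, against 77.1% and 78.0% over all detected protein-coding genes with several transcripts. Retained-intron transcripts held 12.3% and 11.1% of those 16, against 18.8% and 17.7%. These shares are weighted by TPM and lean on Cyp51, the highest of the 16 with 49.3 and 50.3 TPM and nearly all coding. They do not show how the other genes compare with that background, and the shares without Cyp51 were not computed. Of the 16 detected genes with 2 or more transcripts, 16 kept 1 leading transcript across the pair, where the share over protein-coding genes was 90.4%. Cyp4v3 is among the 16 only through Klkb1-201, a transcript named for another gene, which held 1.17% and 1.03% of its TPM. Cyp2c68, Cyp2d26, Cyp2d10, Cyp3a11 and Cyp2c23 have 1 transcript each with all of the TPM, and Cyp51-201 held 99.1% and 99.9% of Cyp51.

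A few genes were split among transcripts. In Cyp2c70 a retained-intron transcript held 37.2% in replicate 1 and 34.9% in replicate 2. In Cyp2r1 the leading coding transcript, Cyp2r1-201, held 48.7% and 48.9%, and in Cyp4a31 it held 51.5% and 55.2%. The share differed between libraries for Cyp27a1-201, with 71.8% and 51.6%, for Cyp17a1-201, with 56.1% and 75.6%, and for Cyp4f16-201, with 52.9% and 80.5%. Both retained-intron transcripts of Cyp27a1 were higher in replicate 2, so its equal gene level covers 3.84 and 2.80 TPM of the coding transcript.

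**Figure D5:**
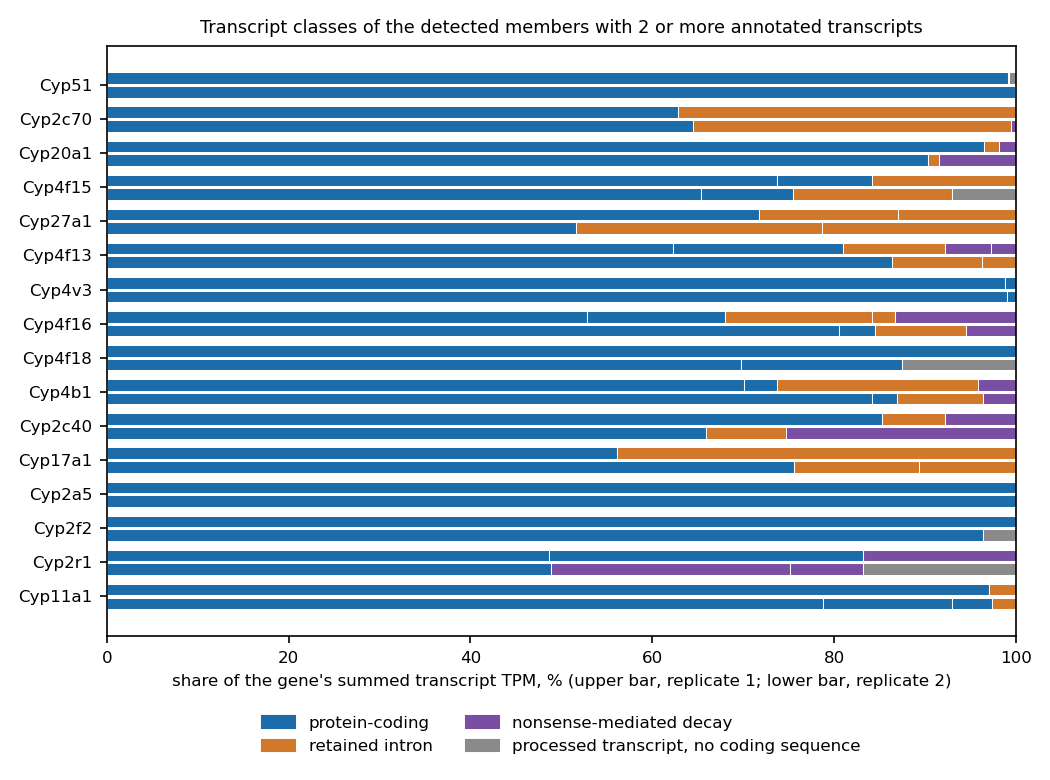
Share of each gene's TPM held by protein-coding, retained-intron, nonsense-mediated decay and processed transcripts, in percent, as stacked bars starting at 0 with replicate 1 above replicate 2, for the 16 detected P450 genes with at least 2 transcripts. The retained-intron share of Cyp2c70 is alike in both bars, at 37.2% and 34.9%.

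Copies close enough to share reads limit part of the set. Of the 100 coding sequences 26 were more than 95% identical to their nearest relative. In 50-base words, 38 genes shared more than 10% with another P450 gene, 10 of them among the 29 detected, and 37 genes shared none, 14 of them detected. Cyp2d10 shared 37.1% of its words and Cyp3a11 shared 14.7%, while Cyp2d26 shared 10.5%. The split of reads within the Cyp2c, Cyp2d, Cyp2a, Cyp3a and Cyp4a groups is therefore uncertain where values of neighbours are compared, to a degree that differs by gene. The authors' posterior SD was 0.07% and 0.05% of the counts of Cyp2c68 in replicates 1 and 2, and 0.11% and 0.09% for Cyp2d10. For Cyp3a41a it was 30.2% and 31.2%.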

How the data were processed

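Each of the 2 libraries came with a gene table and a transcript table. Per the companion descriptions, the authors used mm10 and annotation M4. Aligner, quantifier, read length and strand are not given in the sources used. The deposited expected counts are unscaled estimates of reads or fragments per feature. The authors' deposited TPM includes spike-ins in its total and was rescaled here without them. The deposited percent column is each transcript's share of its gene's TPM, and the authors' posterior SD and credibility bounds (scores) describe the uncertainty of read assignment. Symbols, biotypes, coordinates and coding sequences came from GENCODE M21 (GRCm38), a later annotation than M4, which named 42462 of 43346 genes. Promoters came from RefSeq (GRCm38.p6), and 77 of 100 genes matched. The 100 genes, their functional groups and the lists of other genes were chosen with earlier results of these data known.

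Detection took 1 TPM in each library. Means and SDs are over 2 libraries. Folds between libraries used TPM + 1 and ratios between genes used TPM + 0.1, both on the log2 scale, which understates changes of low genes. Count ratios, from expected counts rounded to whole numbers, have exact 95% intervals. There is 1 group, so no p-value is given. Genes at 1 TPM or more in either library are named, with all genes of the steroid, bile acid, retinoid and vitamin D groups, the others by subfamily, and the 3 highest and the lowest of each list of other genes. Some genes that this rule gives are not reported here. Transcripts are named for the 6 highest genes and where the leading one holds under 60%. Cluster, sequence and marker comparisons are descriptions. The counting code was tested on simulated data. Alternatives were other detection limits, pseudocounts and filters, TMM (edgeR 4.0.16) and median-of-ratios (DESeq2 1.42.0) scaling of the deposited expected counts, CPM, posterior means and each library alone. The software was R 4.3.3, Biopython 1.88, SciPy 1.17.1, pandas 2.3.3, NumPy 2.4.6, matplotlib 3.10.9 and Python 3.11.15.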

Additional observations from a re-analysis of the deposited data

Results flagged for a closer look

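Signal was present in Cyp rows that the comparisons leave out because they are not protein-coding. Of 16 such rows 3 had more than 3 counts in both libraries. The pseudogene Cyp4b1-ps2 (chr4:115582286-115583144, minus strand) had 11.8 TPM in replicate 1 and 8.87 TPM in replicate 2, a mean of 10.3 ± 2.07 (SD, n = 2), from 85.9 and 87.1 expected counts on a length of 333 bases, while the parent gene Cyp4b1 had 3.50 and 3.39 TPM. Cyp2d37-ps (chr15:82688750-82693148) averaged 2.82 ± 1.37 TPM, with 3.79 and 1.85 TPM from 58 and 38 counts. Cyp2d41-ps (chr15:82777931-82782110) averaged 0.129 ± 0.0801 TPM (SD, n = 2 each), from 3.07 and 11.1 counts. Whether these reads come from the pseudogenes or from their coding relatives was not tested.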

How the results depend on the processing

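Counts that changed by over 1.5 times, and shares, differences and the P450 sum where they moved by more than the SD of the 2 libraries, are given here with their new values. Sums of single functional groups are not listed in full. By CPM all of them but vitamin D moved by more than that SD. Vitamin D genes came to 1.30 TPM, 0.838 with coding transcripts alone and 1.67 with posterior means. Steroid hormone genes came to 3.58, 2.94 and 4.23 TPM in the same order, and family 4 to 29.4, 25.3 and 31.6. Detected genes higher in replicate 1 numbered 11 when scaled to hepatocyte markers, against 22. With 2 libraries a single one always lies within that SD, so the single-library ranges say nothing of stability. Genes detected numbered 14 at a limit of 5 TPM and 52 at 10 counts in both libraries, against 29, and 29 to 32 in a single library. The P450 sum was 924 by CPM, 364 TPM without Cyp2c68 (added after the data were seen) and 463 to 556 in a single library, and the family 2 share was 57.9% by counts and 67.1 to 71.3% in a single library. By CPM the log2 differences were -2.38 for Cyp7b1 and 0.92 for Cyp27a1 over Cyp7a1, 1.53 for Cyp8b1 over Cyp7a1, -0.25 for Cyp26b1 over Cyp26a1, 3.15 for Cyp3a11 over Cyp3a16 and 3.63 for Cyp20a1 over Cyp2r1. With coding transcripts alone they were 1.72 for Cyp27a1 over Cyp7a1 and 3.29 for Cyp20a1 over Cyp2r1, with posterior means 2.24 for Cyp8b1 over Cyp7a1 and 2.53 for Cyp20a1 over Cyp2r1, and with no pseudocount -1.84 for Cyp26b1 over Cyp26a1. In single libraries they ranged from -1.87 to -0.80 (Cyp7b1), 2.05 to 2.78 (Cyp27a1), 2.37 to 2.77 (Cyp8b1) and 5.23 to 5.97 (Cyp51) over Cyp7a1, from -1.13 to -0.57 for Cyp26b1, 2.40 to 2.96 for Cyp3a11 and 2.70 to 2.88 for Cyp20a1. Genes past the fold numbered 7 with a pseudocount of 0.1 (adding Cyp2a22, Cyp2a5, Cyp2d9 and Cyp7a1), 0 at 2-fold, 2 at a 5 TPM filter, 4 with TMM or median-of-ratios scaling (adding Cyp2a5) and 2 when scaled to hepatocyte markers (added after the data were seen), against 3. The leading transcript was the same in 6 of 6 genes at 5 TPM and 10 of 10 by coding transcripts alone. No paired analysis was possible because there is 1 group. Depth limits the genes under 10 counts, and the cause of these shifts was not tested.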
